A study of Homo sapiens with 8 samples.

Results

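Transcripts of 9 genes that control plasminogen activation and the start and braking of blood coagulation were measured in the MDA-MB-157 line, established human breast carcinoma cells that lack estrogen receptor. The genes were PLAU, PLAT, PLAUR, SERPINE2, F3, TFPI, THBD, PROCR and F2R, chosen by gene symbol, and all 9 were found among the 21059 genes of the table. RNA was taken after 48 hours in medium with 5 mM glucose (low glucose, the control, 4 libraries) or 25 mM glucose (high glucose, the model of hyperglycemia, 4 libraries). In both groups the cells had first been conditioned in low glucose and were then kept without serum, and an osmotic control for the added glucose was not among the 8 libraries. All libraries came from this line alone. The comparison asks how these transcripts differ between the glucose levels, of which the higher stands for hyperglycemia.

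As background, plasminogen is a plasma protein that becomes the protease plasmin when it is cut by urokinase (PLAU) or tissue-type plasminogen activator (PLAT). Urokinase works at the cell surface on its receptor (PLAUR), and serpins such as SERPINE2 trap the activators. Coagulation starts when tissue factor (F3) binds factor VII, and TFPI inhibits the complex that they form. Thrombin, the product, cuts the receptor F2R, and when bound to thrombomodulin (THBD) it activates protein C held on PROCR. Carcinoma cells are known to make several of these proteins, and tissue factor and the urokinase system have long been studied in tumor invasion and thrombosis.

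Levels are in counts per 1000000 reads (CPM), as scaled by the authors, and a library held an estimated 9721649 to 12482542 reads. The floor of detection was set at 3 reads, or 0.212 to 0.267 CPM depending on the library, and covers counting error only. Of 10 genes listed to check the line, estrogen receptor (ESR1) and KRT19 were under the floor in all 8 libraries, and KRT5 in at least 1. Progesterone receptor (PGR) was detected, at 4.33 to 5.95 CPM, and ERBB2 was at 35.7 to 65.0 CPM. Vimentin (VIM), a mesenchymal gene, was at 2856 to 4116 CPM beside the epithelial genes KRT8 (76.4 to 138 CPM), KRT18 (156 to 238 CPM), EPCAM (3.93 to 7.62 CPM) and CDH1 (0.330 to 1.41 CPM). Reads of KRT8 and KRT18 are uncertain, since 59.8% and 68.9% of their transcripts are shared with other genes, most with KRT8P3 and KRT18P11. Between the groups ERBB2, VIM, KRT8 and KRT18 fell (VIM by 0.47 on the log2 scale) and EPCAM rose by the test given below, and their part in the results was not tested. High glucose replicate 1 stood apart along transcript length. Its difference from the other high glucose libraries had a Spearman correlation of -0.65 with length across 11223 genes, against 0.25 to 0.47 for the other high glucose libraries and -0.13 to 0.06 at low glucose. Genes are not independent replicates, so these are descriptions.

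The 250 bases before the RefSeq start sites (build GRCh38.p14, read 5′ to 3′ on the strand of the gene) are shown for the genes with the largest rises, SERPINE2, PLAUR and F3, and for PROCR, which fell. Of the 9 genes, 6 had a window in the RefSeq promoter table. SERPINE2 has 2 listed starts, and which of them these cells used was not measured. Capitals mark matches on either strand. The letters searched were TGAGTCA for the AP-1 site, CACGTG for the E-box, CCAAT for the box of that name, and TATAA for the TATA box. No match overlaps a match of another motif in these windows.
SERPINE2, chr2:224031479-224031728, strand minus: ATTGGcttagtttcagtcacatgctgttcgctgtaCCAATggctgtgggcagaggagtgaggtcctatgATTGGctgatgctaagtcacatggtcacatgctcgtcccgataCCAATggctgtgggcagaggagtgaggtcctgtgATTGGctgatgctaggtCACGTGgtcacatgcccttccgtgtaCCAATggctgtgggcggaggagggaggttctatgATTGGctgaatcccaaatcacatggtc
SERPINE2, chr2:224038641-224038890, strand minus: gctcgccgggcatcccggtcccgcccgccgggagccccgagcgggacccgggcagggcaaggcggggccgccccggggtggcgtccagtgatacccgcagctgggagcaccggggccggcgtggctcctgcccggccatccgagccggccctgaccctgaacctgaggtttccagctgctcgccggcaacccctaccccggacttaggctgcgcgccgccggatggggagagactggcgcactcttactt
PLAUR, chr19:43670170-43670419, strand minus: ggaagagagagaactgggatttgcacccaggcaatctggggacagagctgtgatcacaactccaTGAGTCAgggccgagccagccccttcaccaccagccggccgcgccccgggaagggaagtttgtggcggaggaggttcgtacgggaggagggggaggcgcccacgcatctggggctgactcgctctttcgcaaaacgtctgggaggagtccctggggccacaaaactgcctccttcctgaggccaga
F3, chr1:94541760-94542009, strand minus: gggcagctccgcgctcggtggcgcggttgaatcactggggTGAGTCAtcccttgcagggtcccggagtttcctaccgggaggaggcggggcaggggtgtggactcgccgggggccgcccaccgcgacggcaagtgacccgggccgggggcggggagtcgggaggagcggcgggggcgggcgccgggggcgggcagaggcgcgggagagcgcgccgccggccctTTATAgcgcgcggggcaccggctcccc
PROCR, chr20:35171822-35172071, strand plus: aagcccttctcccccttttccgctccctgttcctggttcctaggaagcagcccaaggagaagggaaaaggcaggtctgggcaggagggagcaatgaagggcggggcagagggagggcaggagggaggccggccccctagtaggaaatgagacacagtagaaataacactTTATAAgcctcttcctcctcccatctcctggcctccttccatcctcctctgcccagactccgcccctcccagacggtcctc

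The windows differed in what they held. The first SERPINE2 window held 7 matches to the CCAAT box and an E-box that began 87 bases before the start, while the second held no match to the capitalised motifs. PLAUR and F3 each held an AP-1 match, at 186 and 210 bases before the start. F3 also had a TATA box match at 27 bases, where a TATA box usually lies, while the 2 overlapping TATA box matches of PROCR lay 80 and 81 bases before its start. GC boxes (GGGCGG), which are not capitalised, numbered 4 in F3, 2 in PROCR and 0 in PLAUR. The first SERPINE2 window held 1 and the second 2. Of 35116 windows of the same length, 4.20% held the AP-1 site, 6.34% the E-box, 32.0% the CCAAT box, 18.9% the TATA box and 42.6% the GC box. The TFPI window held none of these motifs. A match is a description of the letters and not a measured binding site.

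At high glucose, 4 of the 9 genes were higher (SERPINE2, PLAUR, F3 and TFPI), 3 were lower (PLAT, PROCR and F2R) and 2 did not pass the test (PLAU and THBD). The inhibitor SERPINE2 rose most, 2.23-fold, and PROCR fell most, being 1.74-fold lower. Genes were tested with limma on log2(CPM + 1), with p-values adjusted over all 21059 genes. At the same threshold, an adjusted p of 0.05, 46.8% of all genes passed, 22.0% higher and 24.8% lower. Among the 11297 genes with a mean of at least 5 CPM, to which 8 of the 9 belong, 66.9% passed, 33.6% higher and 33.3% lower. With so few genes, nothing is read from 7 of the 8 passing beside that share. The median log2 change of the 9 genes was 0.10, against -0.0092 over all genes. The groups did not overlap in the 7 genes that passed, as in 44.5% of all genes (20.9% higher, 23.6% lower) and in 65.0% of those of at least 5 CPM (32.5% higher, 32.5% lower). In bulk RNA, a change in how many cells make a transcript and a change in the amount per cell cannot be told apart.

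**Figure D1:**
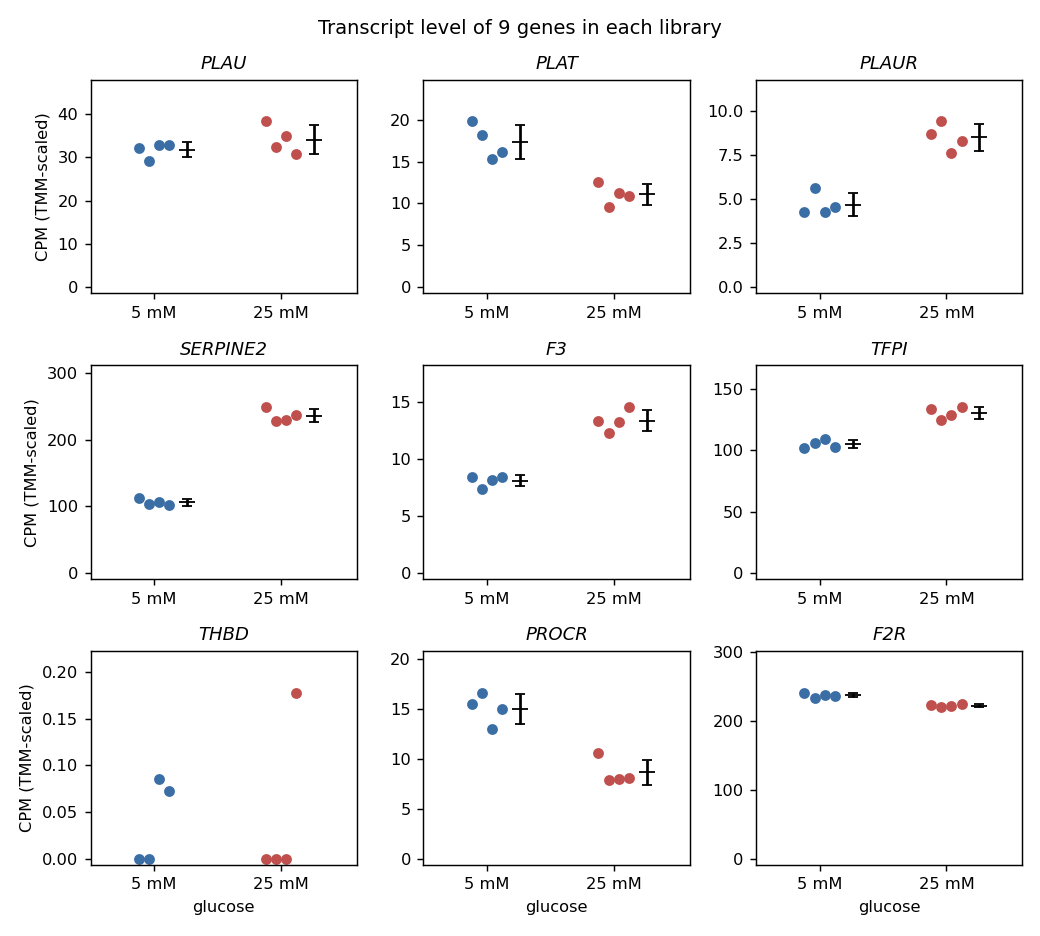
CPM of each gene (vertical axis, linear, from 0) in the 4 libraries at 5 mM (blue) and the 4 at 25 mM glucose (red), with the mean and SD as black bars except for THBD, which was under the floor in every library. SERPINE2 lay at 101 to 113 CPM at low and 228 to 249 CPM at high glucose, while the 2 groups of PLAU overlapped.

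Of the 2 activators, PLAT fell and PLAU did not pass the test. PLAU (ENSG00000122861.16, chromosome 10, 73908832 to 73917494 on GRCh38.p14), which encodes urokinase, was at 32.3, 29.2, 32.9 and 32.9 CPM in low glucose replicates 1 to 4 and at 38.4, 32.4, 34.9 and 30.8 CPM in high glucose replicates 1 to 4. The groups overlapped, and the highest library was high glucose replicate 1. Means were 31.8 ± 1.78 CPM (SD, n = 4) and 34.1 ± 3.29 CPM, a log2 change of 0.10 (95% interval -0.08 to 0.27, limma adjusted p = 0.333), a difference that did not hold up against the replicate spread. The interval leaves room for a change of up to 0.27 and does not show that the level was the same. Without high glucose replicate 1 the log2 change was 0.04, and after removing each library's length trend it was 0.15 and passed (limma adjusted p = 0.0422). C10orf55 lies on the other strand and covers 31% of the exon positions of PLAU. It was at 0.282 to 0.877 CPM, and whether strand was used in counting is not given in the sources used here.

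PLAT (ENSG00000104368.17, chromosome 8, 42174718 to 42207565), the tissue-type activator, was at 19.8, 18.2, 15.3 and 16.1 CPM at low glucose and at 12.6, 9.57, 11.3 and 10.9 CPM at high glucose. Every high glucose library was under every low glucose library. The means of 17.4 ± 2.06 and 11.1 ± 1.23 CPM gave a log2 change of -0.60 (SE 0.10, limma adjusted p = 0.00265). With both activators set per kilobase of transcript, PLAU took 70.5 ± 3.16% of their sum at low and 80.1 ± 1.20% at high glucose, with no overlap between 67.6% to 73.8% and 78.7% to 81.6%.

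PLAUR (ENSG00000011422.12, chromosome 19, 43646095 to 43670169), the receptor that holds urokinase on the cell surface, was at 4.25, 5.63, 4.25 and 4.52 CPM at low glucose and at 8.68, 9.41, 7.59 and 8.27 CPM at high glucose. The low values rest on 50 to 68 reads a library, and the high ones on 92 to 123. All 4 high glucose libraries lay above all 4 at low glucose, and low glucose replicate 2 was the highest of its group. The mean of 4.66 ± 0.659 CPM rose 1.82-fold to 8.49 ± 0.762 CPM, a log2 change of 0.75 (SE 0.10, limma adjusted p = 0.000785). At this level the pseudocount of 1 shrinks the log2 change, and with a pseudocount of 0.1 it was 0.86 and with one of 5 it was 0.48.

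SERPINE2 (ENSG00000135919.13, chromosome 2, 223975045 to 224039286), or protease nexin-1, inhibits urokinase, tissue-type activator and thrombin. Its values were 113, 103, 107 and 101 CPM at low glucose and 249, 228, 230.4 and 238 CPM at high glucose. The groups stood far apart, with a gap between them wider than the range within either. From 106 ± 5.00 CPM the mean rose to 236 ± 9.56 CPM, for a log2 change of 1.15 (SE 0.04, limma adjusted p = 2.5e-06). Among the 11297 genes of at least 5 CPM, 4.06% had a larger absolute log2 change. Nearest to its pattern were THAP1, CAVIN1 and PRNP, whose centred log2(CPM + 1) differed from that of SERPINE2 by root mean squares of 0.0440, 0.0467 and 0.0469 over the 8 libraries.

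F3 (ENSG00000117525.14, chromosome 1, 94529173 to 94541759), tissue factor, the cell-surface protein that starts coagulation, was at 8.42, 7.37, 8.15 and 8.45 CPM at low glucose. At high glucose it was at 13.3, 12.3, 13.3 and 14.6 CPM. The groups did not overlap, and the coefficient of variation within each, 6.21% and 7.04%, was below the 9.98% and 7.74% that counting alone would give. The means of 8.10 ± 0.503 and 13.4 ± 0.942 CPM differed 1.65-fold, a log2 change of 0.66 (SE 0.07, limma adjusted p = 0.000182). By the same measure as above, DIAPH3, MED21 and UGCG were nearest to F3, at 0.0296, 0.0389 and 0.0440.

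TFPI (ENSG00000003436.16, chromosome 2, 187464230 to 187554435) encodes the inhibitor of the tissue factor and factor VII complex. It was at 102, 106, 109.7 and 103 CPM at low glucose and at 134, 125, 129 and 135 CPM at high glucose. Each high glucose library was above each low glucose library, by a smaller ratio than for F3. The rise was 1.24-fold, from 105 ± 3.44 to 131 ± 4.91 CPM (log2 change 0.31, SE 0.03, limma adjusted p = 0.000299), and 55% of the genes of at least 5 CPM had a larger absolute change. With quantile normalization the log2 change was 0.18.

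THBD (ENSG00000178726.6, chromosome 20, 23045633 to 23049672), thrombomodulin, was close to absent. It was listed at 0, 0, 0.0849 and 0.0728 CPM at low glucose and at 0, 0, 0 and 0.178 CPM at high glucose, which is at most 2 reads a library. All 8 values lay under the floor of 3 reads, so no fold is given and a difference was not detectable at this depth (limma adjusted p = 1).

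PROCR (ENSG00000101000.6, chromosome 20, 35171096 to 35216259), the protein C receptor, was at 15.5, 16.6, 13 and 15.0 CPM at low glucose and at 10.6, 7.89, 8.0 and 8.09 CPM at high glucose. The groups did not overlap, and high glucose replicate 1 stood above the other 3 of its group. The transcript of PROCR has 1349 bases, the shortest of the 9, and short transcripts were high in that library. On the log2 scale that library was 0.37 above the mean of the others of its group for PROCR. For PLAUR, with 1368 bases, it was 0.04 above. Why PROCR was high in that library was not tested. Mean CPM fell from 15.0 ± 1.52 to 8.64 ± 1.30, a log2 change of -0.74 (SE 0.11, limma adjusted p = 0.00133). Without high glucose replicate 1 the change was -0.83, and with the length trend removed -0.63. An unnamed gene on the other strand covers 12.8% of its exon positions.

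F2R (ENSG00000181104.7, chromosome 5, 76716126 to 76735770), the thrombin receptor PAR1, changed least of the genes that passed. It was at 241, 233, 238 and 236 CPM at low glucose and at 223, 219.8, 222 and 224 CPM at high glucose. The groups did not overlap, but the lowest library at low and the highest at high glucose were only 233 and 224 CPM. Means of 237 ± 3.19 and 222 ± 1.77 CPM gave a log2 change of -0.09 (SE 0.02, limma adjusted p = 0.00235), or a mean that fell by 6.31%. The coefficient of variation at high glucose, 0.796%, was below the 1.90% of counting alone, so the spread behind this small change is narrower than counting error. With median-of-ratios scaling the log2 change was -0.05, and with quantile normalization -0.17.

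THBD, PROCR and TFPI are known as endothelial genes, and markers of endothelial cells were therefore summed. Of 10 markers, 9 had a row, their sum was 15.4 to 19.2 CPM at low and 14.3 to 18.6 CPM at high glucose, and EGFL7 (7.11 to 16.0 CPM) led it. Of the 9, 3 were higher and 2 lower at high glucose by the same test, beside 22.0% and 24.8% of all genes. CDH5, EMCN, ESAM, ROBO4, TEK and TIE1 were under the floor in at least 1 library. Platelet markers summed to 5.97 to 7.38 CPM at low and 3.48 to 4.97 CPM at high glucose (3 of 8 with a row). Of these, GP1BB had the highest mean in both groups, and it shares 100% of its transcript with an overlapping gene. Hepatocyte markers summed to 0.497 to 0.947 and 0.239 to 0.660 CPM (3 of 8), and myeloid markers to 15.1 to 19.4 and 18.8 to 23.7 CPM (5 of 6). The marker ITGA2B of platelets was lower, at a log2 change of -0.58. SERPINA1 of hepatocytes passed narrowly, at a log2 change of -0.25 (limma adjusted p = 0.0498), and its groups overlapped. It held 2 to 8 reads a library and was under the floor in at least 1. The myeloid sum was led by CD68, which shares 93.1% of its transcript with an overlapping gene and did not pass. CD14 rose from 0.801 to 1.58 CPM at low glucose to 2.76 to 5.79 CPM at high glucose, 3.4-fold on the mean (limma adjusted p = 0.00252), and the groups of CSF1R, at 3.25 to 5.10 and 5.18 to 6.0 CPM, did not overlap but missed the threshold (limma adjusted p = 0.0783). LYZ and PTPRC of the myeloid list were under the floor in all 8 libraries, while CD14, CSF1R and CD68 were above it in every library. ALB of the hepatocyte list was under the floor in at least 1 library. The part of other cell types in the results was not tested.

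Set per length, the order of the 9 transcripts changed with glucose. At low glucose F2R led, at 63.6 ± 0.855 CPM per kilobase, ahead of SERPINE2 at 47.7 ± 2.24. At high glucose SERPINE2 led, at 106 ± 4.29 CPM per kilobase, ahead of F2R at 59.6 ± 0.475, and in neither group did the ranges of these 2 overlap. TFPI (27.2 ± 0.891 and 33.9 ± 1.27 CPM per kilobase at low and high glucose) and PLAU (13.6 ± 0.760 and 14.6 ± 1.40) came next in both groups. Below them, PROCR, PLAT, F3 and PLAUR followed in that order at low glucose, at 11.1, 5.67, 3.52 and 3.41 CPM per kilobase. At high glucose the order was PROCR, PLAUR, F3 and PLAT, at 6.41, 6.20, 5.82 and 3.62. The ranges of F3 and PLAUR overlapped in both groups, and those of PROCR and PLAUR at high glucose, so these neighbours do not differ beyond their spread. Lengths are those of the canonical GENCODE transcripts, and which isoforms the cells made was not measured.

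**Figure D2:**
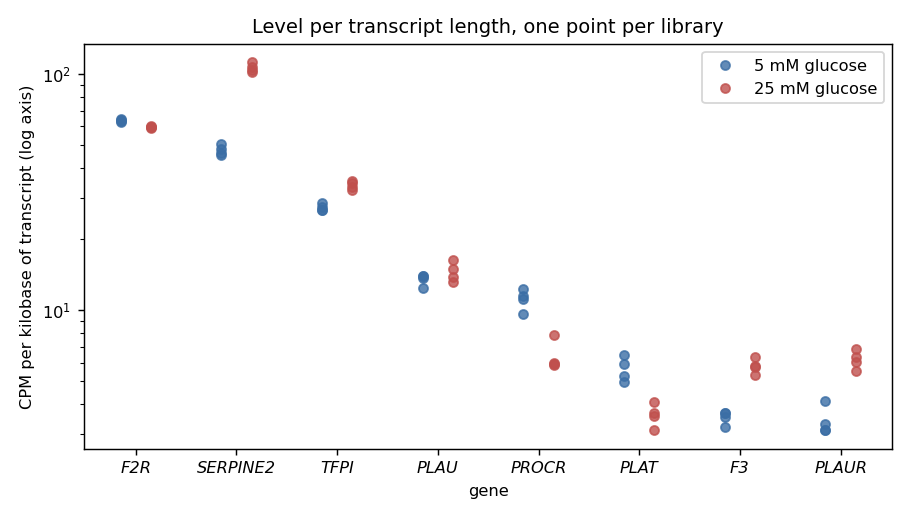
CPM per kilobase of transcript (vertical axis, log scale) for 8 genes, one point per library, blue for 5 mM and red for 25 mM glucose. THBD is left out because it was under the floor. SERPINE2 passes from below F2R (47.7 against 63.6) to above it (106 against 59.6), and PLAT drops from above F3 and PLAUR to below them.

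Ratios between transcripts of the same library depend little on the scaling between libraries. PLAU fell relative to the transcripts of its receptor and its inhibitor, and rose relative to PLAT. The 6 ratios were each compared by an exact 2-sided permutation test over 70 assignments. All 6 reached the smallest exact permutation p this design allows, 0.0286, which stayed at 0.0286 after adjustment over the 6. Each ratio holds a gene whose own groups did not overlap, as in 65.0% of genes of at least 5 CPM. How often ratios of other genes separate was not measured. The log2 ratio of PLAU to PLAUR fell from 2.54 ± 0.24 to 1.89 ± 0.18 (SD, n = 4), a difference of -0.65 that was -0.39 with a pseudocount of 5. For PLAU to SERPINE2 it went from -1.71 ± 0.09 to -2.76 ± 0.11, a difference of -1.05. PLAT to SERPINE2 moved most, from -2.55 ± 0.14 to -4.30 ± 0.10, a difference of -1.75, with its parts moving in opposite directions. Neither PLAT nor SERPINE2 had groups that overlapped, so the separation of this ratio was fixed by those results and adds no further evidence.

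PLAU to PLAT rose from 0.84 ± 0.21 to 1.54 ± 0.10, a difference of 0.70. The ratio of tissue factor to its inhibitor, F3 to TFPI, rose from -3.54 ± 0.11 to -3.20 ± 0.05, a difference of 0.35 that was 0.19 with a pseudocount of 5. In all 4 libraries of each group the latter ratio kept to its side, with -3.45 as the highest value at low glucose and -3.24 as the lowest at high glucose. The sixth ratio, THBD to PROCR, differed by 0.74, and with THBD under the floor it follows PROCR alone.

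**Figure D3:**
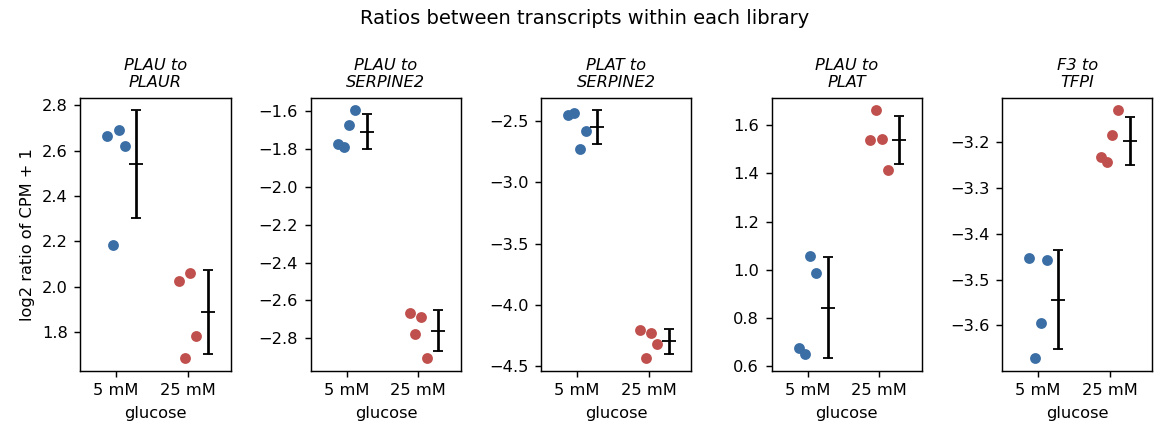
Log2 ratio of CPM + 1 (vertical axis, a separate range in each panel that does not start at 0) for 5 pairs of transcripts within each library, blue for 5 mM and red for 25 mM glucose, with the mean and SD in black. The groups do not overlap in any panel, and the distance between them is widest for PLAT to SERPINE2, at -1.75. Each pair holds a gene whose own groups did not overlap, as in 65.0% of genes of at least 5 CPM.

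Other genes of the same pathways were taken from 4 lists of 66 genes, of which 53 had a row. Of these, 31 (58.5%) passed, 14 higher and 17 lower, beside 46.8% of all genes, and 22 did not, with a median log2 change of 0 against -0.0092 over all genes. Among the 30 with a mean of at least 5 CPM, 22 (73.3%) passed, 9 higher and 13 lower, beside 66.9% of all genes at that level. These counts do not set the pathways apart from other genes.

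In the plasminogen list, 12 of 20 genes (60.0%) passed, 5 higher and 7 lower, beside 46.8% of all genes. The 12 include A2M, with 0 to 3 reads a library, and SERPINB2, both under the floor in at least 1 library. SERPINB2, or PAI-2, was at or below the floor in 7 libraries and reached 0.356 CPM in the other, high glucose replicate 4.

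LRP1, the endocytic receptor that clears complexes of activator and serpin, was at 192, 205, 202 and 207 CPM at low glucose. At high glucose it was at 56.4, 75.1, 73.0 and 64.4 CPM, 3.0-fold lower on the mean, and the log2 change was -1.58 (SE 0.09, limma adjusted p = 1.3e-05). Its transcript has 14923 bases, long transcripts were low in high glucose replicate 1, and without that library the change was -1.50. With the length trend removed the change was -1.54, and why LRP1 fell was not tested. VLDLR and LRP8, receptors of the same family, did not pass, at log2 changes of 0.06 and 0.12.

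The surface proteins known to bind plasminogen moved in both directions. S100A10 rose from 236 ± 7.82 to 339 ± 30.4 CPM (log2 change 0.52), while its partner ANXA2 fell from 1915 ± 40.2 to 1219 ± 69.3 CPM (-0.65, and -0.42 with quantile normalization), and ANXA2 shares 47.3% of its transcript with the pseudogene ANXA2P2. PLGRKT fell from 14.5 ± 1.79 to 8.68 ± 0.949 CPM (-0.68). ENO1 did not pass, at 2800 ± 36.1 and 2974 ± 217 CPM. SERPINB6, an intracellular serpin, fell from 83.0 ± 3.43 to 52.5 ± 1.43 CPM (-0.65).

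The coagulation list had 8 of 16 genes (50%) past the threshold, 3 higher and 5 lower, a share near the 46.8% of all genes. The 8 include VWF, which was under the floor in at least 1 library. GGCX, the carboxylase that makes clotting factors able to bind calcium, fell from 61.9 ± 2.13 to 35.2 ± 1.66 CPM (log2 change -0.80). VKORC1, which recycles the vitamin K that GGCX uses, was at 38.1 ± 1.51 and 23.7 ± 2.25 CPM (-0.66), while its paralog VKORC1L1 rose from 40.6 ± 1.37 to 75.4 ± 3.41 CPM (0.88). Reads of VKORC1 are uncertain, since 70.7% of its transcript is shared with an overlapping gene. MCFD2, which with LMAN1 carries factors V and VIII out of the endoplasmic reticulum, rose from 334 ± 3.84 to 635 ± 34.7 CPM (0.93). F8 itself, at 7.56 ± 0.578 and 4.50 ± 0.362 CPM, had a log2 change of -0.64, which was -0.40 with a pseudocount of 5. P4HB, a disulfide isomerase, had one of -0.40, which under quantile normalization was -0.14 and no longer passed (limma adjusted p = 0.0502). F7, the partner of tissue factor, was at or under 0.0889 CPM in every library.

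In the anticoagulant list, 5 of 9 genes (55.6%) passed, 3 higher and 2 lower, beside 46.8% of all genes. The 5 include PROZ, which held 1 read in each low glucose library and was under the floor there. TFPI2, a relative of TFPI that inhibits plasmin, rose from 18.1, 18.0, 19.4 and 18.6 CPM to 81.2, 79.5, 79.7 and 82.1 CPM (log2 change 2.06, SE 0.03, limma adjusted p = 1.6e-07). Its coefficient of variation, 3.44% at low and 1.58% at high glucose, was below the 6.60% and 3.15% of counting alone. The spread behind this p-value is therefore narrower than counting error. PROS1, protein S, a cofactor of activated protein C and of TFPI, fell from 61.9 ± 2.74 to 26.2 ± 1.06 CPM (-1.21) and shares 21.1% of its transcript with the pseudogene PROS2P. GAS6, a relative of protein S, fell from 79.1 ± 3.15 to 64.6 ± 7.21 CPM (-0.29), a call that was lost without low glucose replicate 4 (-0.28, limma adjusted p = 0.0530) or high glucose replicate 3 (-0.28, limma adjusted p = 0.0521). NT5E rose from 35.0 ± 2.07 to 45.8 ± 1.73 CPM (0.38), and ENTPD1, which acts before it in breaking down extracellular ATP, did not pass (0.01).

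Of the 8 genes of thrombin signaling, 3 rose and 3 fell (75.0%), beside 46.8% of all genes. F2RL1, or PAR2, which tissue factor with factor VII can activate, was at 43.8, 42.6, 44.9 and 49.5 CPM at low glucose and at 90.1, 83.9, 82.7 and 84.3 CPM at high glucose (log2 change 0.90, SE 0.05, limma adjusted p = 1.3e-05). F2R, the thrombin receptor of the same family, fell by 0.09 on the log2 scale. GNA13, a G protein subunit that these receptors use, rose from 233 ± 6.06 to 320.2 ± 12.5 CPM (0.45). ARHGEF1, an exchange factor downstream of it, fell from 22.3 ± 3.18 to 14.4 ± 0.873 CPM (-0.59). ITGB3, an integrin subunit that also binds fibrinogen and vitronectin, fell from 13.7 ± 1.21 to 7.04 ± 0.783 CPM (-0.87), but 43.3% of its transcript is shared with an overlapping gene.

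**Figure D4:**
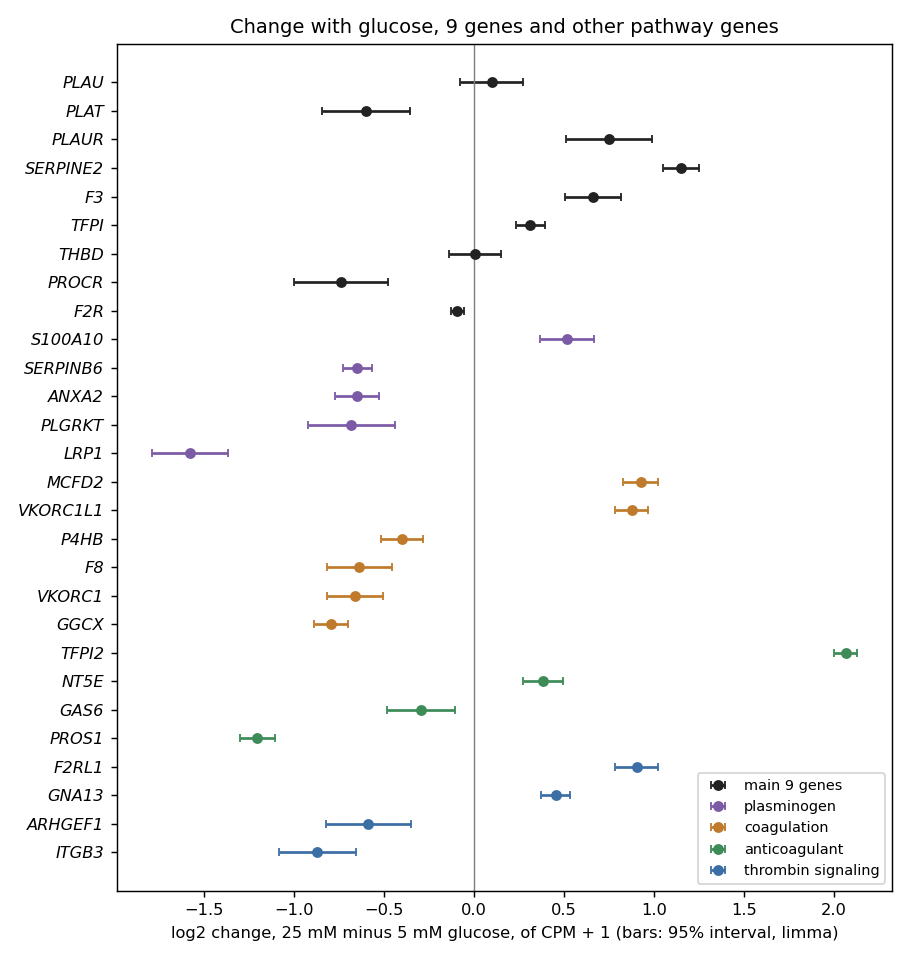
Log2 change of CPM + 1, 25 mM minus 5 mM glucose (horizontal axis), with the 95% interval from limma as bars, for the 9 genes (black) and 19 other genes of the 4 lists (colours), SERPINB2 left out as it was near the floor. TFPI2 lies farthest to the right at 2.06 and LRP1 farthest to the left at -1.58, while the intervals of PLAU and THBD cross 0.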

How the data were processed

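RNA sequencing libraries of MDA-MB-157 cells (4 at low and 4 at high glucose, by the sample titles) were analysed from 1 table. The authors deposited counts per 1000000 reads (CPM) scaled with TMM factors from edgeR. The submitters' processing notes name hg38, while the methods, written first for tumors, name hg19 and TopHat. The counter and its use of the strand for these libraries are not given in the sources used here. Values below 200 reads were whole reads (within 0.01 read) in 72.4% to 73.9% of cases and hundredths of a read in 100%, so the values are fractional estimates and no count model was used. The 18 pseudoautosomal Y lines, identical to the X copies, were left out. Whether the replicates were separate cultures is not stated, so p-values measure the spread between these libraries.

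All 21059 genes were fitted as log2(CPM + 1) with limma 3.58.1 in R 4.3.3 (eBayes with trend, 2-sided, no covariate, no filter), with Benjamini-Hochberg adjustment over all genes. The steps were tested on simulated data. Fold changes are ratios of mean CPM, and log2 changes understate those of low genes. The 6 ratios were compared by exact permutation. Transcript lengths and shared sequence (31-base words) came from GENCODE 44, and positions and promoters from RefSeq on GRCh38.p14. The genes and lists were chosen with earlier results of these data known. Besides the 9 genes, the text names from each list at most 6 genes with an adjusted p under 0.05 and a mean of at least 5 CPM, SERPINB2, TFPI2 and F2RL1, and, for SERPINE2, PLAU and F3, the 3 genes of at least 5 CPM nearest in pattern (for PLAU these were OR51E2, NUDT19 and SNRPC, at 0.0324, 0.0461 and 0.0469). A further gene that the rule names is not reported here. VLDLR, LRP8, ENO1, F7 and ENTPD1 were named after their values were seen. Alternatives were 2 pseudocounts, a minimum of 5 CPM, 3 scalings, a replicate block, removal of the length trend, sample weights, no mean-variance trend and leaving out each library.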

Additional observations from a re-analysis of the deposited data

Results flagged for a closer look

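In each group of 4 libraries, the most extreme value was set against the others with Dixon's ratio, its gap to the next value over the whole range, at the 95% critical value for 4 samples. Of 74 groups examined, 6 exceeded it, where chance gives about 3.7 (1 in 20). PROCR at high glucose had a ratio of 0.927, from high glucose replicate 1. PLAU at low glucose had a ratio of 0.833 and PLAU to PLAUR at low glucose 0.858, both from low glucose replicate 2. THBD at high glucose and SERPINB2 at low glucose each had a ratio of 1, from a single library with reads. The estimated reads at low glucose had a ratio of 0.864, as low glucose replicate 4 was the deepest of its group.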

How the results depend on the processing

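The 7 calls and their directions held in each alternative run, 18 per gene, with log2 changes of 1.05 to 1.21 for SERPINE2, 0.48 to 0.90 for PLAUR, 0.49 to 0.77 for F3, 0.18 to 0.35 for TFPI, -0.66 to -0.47 for PLAT, -0.83 to -0.56 for PROCR and -0.17 to -0.05 for F2R. PLAU passed only with the length trend removed (0.15), and ranged from 0.04 to 0.14 when 1 library was left out. THBD, under the floor, changed sign with a pseudocount of 0.1 (-0.051), quantile normalization (-0.00050) and sample weights (-0.0098), and ranged from -0.055 to 0.025 when 1 library was left out. The count of all genes passing ranged from 8120 to 10462.

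Same-numbered libraries did not clearly deviate together, with correlations of -0.0403 to 0.0692 across genes, against -0.136 to 0.0746 for other pairs. The main test therefore used no pairing, but this check cannot exclude that same-numbered libraries shared a set-up. With the replicate block, 8921 genes and 7 of the 9 passed, and GAS6 (limma adjusted p = 0.0701) and SERPINB2 (0.0578) did not. In numbered pairs the exact sign-flip p of the ratios was 0.125, the smallest that 4 pairs allow, with unchanged differences of -0.65, -1.05, -1.75, 0.70, 0.35 and 0.74. THBD to PROCR was 0.75 with a pseudocount of 0.1 (exact permutation adjusted p = 0.229). A pseudocount of 5 gave -0.39 for PLAU to PLAUR, 0.19 for F3 to TFPI and 0.56 for THBD to PROCR. Leaving out 1 library gave -0.77 to -0.58 for PLAU to PLAUR, with an adjusted exact permutation p of 0.0571 without any 1 high glucose library, and 0.66 to 0.85 for THBD to PROCR, with 0.0571 without low glucose replicate 1, 2 or 4. SERPINB2 also lost its call without low glucose replicate 1, 3 or 4. The cause of these changes was not tested. Depth limits THBD and SERPINB2, which held few reads.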

Other observations

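Some pathway genes with a mean under 5 CPM passed the same test and are given here as values, chosen after they were seen. SERPINF2, the circulating inhibitor of plasmin, was at 0.248 to 0.583 CPM at low and 1.90 to 3.04 CPM at high glucose (log2 change 1.32, limma adjusted p = 0.000105), and SERPINB8 at 0.595 to 1.5 and 2.68 to 3.55 CPM (1.02, 0.00118). F2RL2, or PAR3, was at 3.92 to 4.64 and 1.55 to 2.58 CPM (-0.81, limma adjusted p = 0.000853), the direction of F2R and not of F2RL1. GNAQ, a G protein subunit of these receptors, was at 2.29 to 2.90 and 4.94 to 6.02 CPM (0.83, limma adjusted p = 0.000172). VWF was at 1.33 to 1.53 CPM at low glucose and 0 to 0.918 CPM at high glucose, where high glucose replicate 1 was the highest.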
